A study of Mus musculus with 12 samples.

Results

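The comparison asks how mouse ear skin that lacked the vitamin D receptor in K5-Cre-expressing cells differed from wild-type ear skin when both received the same vitamin D analog ointment. Total RNA of whole ear skin was sequenced in 12 libraries, of which 6 carry the comparison. The group WT_Oxarol held 3 libraries of wild-type mice (strain C57BL/6J) and the group VDRcKO_Oxarol held 3 libraries of K5-Cre;VDR f/f mice, whose background strain is not given in the sources used here. Both groups had 100 mg of Oxarol ointment, holding 2.5 µg of maxacalcitol, on the ear, and were sampled on day 1. The other 6 libraries were 3 wild-type ears given PBS (WT_PBS, day 1) and 3 untreated wild-type ears (WT_untreated), and all mice were 8 to 12 weeks old. PBS is not the ointment base, and no K5-Cre;VDR f/f ear without the ointment is among the samples, so a difference between the genotypes cannot be told apart from a difference in their response to the ointment. Of 23234 gene symbols, 14059 (60.5%) reached 1 FPKM in at least 3 of the 12 libraries and were tested, 13997 of them outside the hair shaft set and 62 within it. The hair shaft set holds the symbols that start with Krtap and the hair keratins. At the edge of the filter, AI427809 and Shox2 had a third-highest value of 1.0002 and 1.0011 FPKM and were kept, and Gm14047 and S100a5 had 0.9990 and 0.9986 and were not. Some genes reached 1 FPKM in 3 libraries only with the VDRcKO_Oxarol libraries counted. Among them are Oasl1, Gzmc, Lrat, Vsig8, Eif3j, Krt35, Krtap12-1 and Krtap13-1. For such genes the filter itself favoured an increase, so their calls are weak support.

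The vitamin D receptor (gene Vdr) is a nuclear receptor that binds active vitamin D, pairs with a retinoid X receptor and switches genes on or off from DNA elements made of a pair of half-sites. Maxacalcitol is a synthetic analog of the active hormone that is used on psoriatic skin. In the epidermis the receptor is known for roles in keratinocyte differentiation and in the hair cycle, and mice that lack it lose their hair after the first coat. The keratin 5 promoter drives Cre in the basal layer of the epidermis and in the outer layers of the hair follicle. Dermal fibroblasts, cartilage, vessels, muscle and most immune cells of the ear are not expected to express Cre and would keep the receptor gene intact.

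Values are FPKM, in which the fragments of a gene are scaled by its transcript length and by the mapped fragments of the library. A difference is VDRcKO_Oxarol minus WT_Oxarol in log2(FPKM + 1), ± the standard error of a limma fit over all 12 libraries with n = 3 libraries a group. A gene is called where the Benjamini-Hochberg adjusted p of limma over all 14059 genes is under 0.05. Each gene given below as called was also called in all 12 fits that left out 1 library, unless the libraries that ended the call are named beside it. The labels do not state whether replicate libraries come from different mice, so the p-values measure the spread between these libraries. Read depth is not given. From the size of the smallest values, the VDRcKO_Oxarol libraries held an estimated 0.262, 0.31 and 0.382 times the reads of WT_Oxarol replicate 1, and WT_Oxarol replicates 2 and 3 held 1.37 and 0.42 times. These estimates may be off by a factor of 2. Library codes fall into a pair of number ranges, called library series here: all 3 VDRcKO_Oxarol libraries and replicate 3 of each wild-type group lie in the second range, and nothing calls the ranges a batch. The skin keratins were present in every library, with Krt14 at 907 to 1836 FPKM and Krt1 at 99.2 to 620.4 FPKM over the 12.

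Vdr itself was higher, not lower, in the libraries labelled VDRcKO_Oxarol. Its value was 23.6, 25.04 and 17.98 FPKM there, against 7.87, 6.68 and 7.05 in WT_Oxarol, 9.28, 10.1 and 9.43 in WT_PBS and 4.87, 9.35 and 9.57 in untreated ears. The groups did not overlap and the difference was 1.49 ± 0.21 (limma adjusted p = 0.00558). A value per gene sums all exons and all cells of the ear, the deleted exons are not named in the sources used here, and so the Vdr level does not check the deletion. Cyp24a1, the 24-hydroxylase that breaks down active vitamin D and is the best known target gene of the receptor, was lower. Its FPKM values were 66.2, 599 and 458 with the ointment in wild-type ears, 0, 0.271 and 0.175 in VDRcKO_Oxarol and 0 to 0.372 in the wild-type ears without ointment. The difference was -7.85 ± 0.62 (limma adjusted p = 0.000689), and the call held in all 24 alternative settings. Of 17 tested genes known as receptor targets in other tissues, 2 were called lower (11.8%, all genes 4.43%) and 1 higher (5.88%, all genes 8.71%). The second lower one, Bglap (osteocalcin), had 11.4, 15.9 and 19.3 FPKM against 34.3, 34.2 and 46.7 in WT_Oxarol, a difference of -1.26 ± 0.25 that was not called without VDRcKO_Oxarol replicate 1 (limma adjusted p = 0.0535). The higher one, Slc37a2, a sugar phosphate transporter, differed by 0.49 ± 0.14 and was not called without WT_untreated replicate 2, any single WT_PBS replicate, WT_Oxarol replicates 1 or 3 or any single VDRcKO_Oxarol replicate (limma adjusted p = 0.0517 to 0.12). Cdkn1a, a cell cycle inhibitor, had 127, 125 and 117 FPKM against 147, 139.7 and 141, with a limma adjusted p of 0.238. The hairless corepressor gene Hr had 25.5, 27.8 and 22.95 FPKM against 15.98, 18.5 and 16.4, with a limma adjusted p of 0.065. With the series term Vdr and Cyp24a1 stayed called and Bglap and Slc37a2 did not (limma adjusted p = 0.0654 to 0.117).

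Outside the hair shaft set, 1798 of 13997 genes were called (12.8%), 1175 higher (8.39%) and 623 lower (4.45%) in VDRcKO_Oxarol, beside 13.1% of all 14059 genes. At least a 2-fold change on the fitted scale was reached by 187 of the higher and 49 of the lower genes. The 3 and 3 libraries did not overlap for 42.0% of these genes (42.2% of all genes), 27.6% higher and 14.4% lower (27.9% and 14.3% of all genes), and the median difference over them was 0.077. The split between directions depends on the scaling: 804 were higher and 1097 lower after median-of-ratios scaling, and 770 and 1292 after quantile normalization, which moved the median of all genes by 0.116. Leaving out 1 library gave 206 to 2308 higher and 112 to 1071 lower genes. The lowest counts came without WT_Oxarol replicate 2 (206 and 112), VDRcKO_Oxarol replicate 1 (334 and 160) or VDRcKO_Oxarol replicate 2 (329 and 167), and the highest without WT_untreated replicate 1. A core of 173 higher and 87 lower genes was called with all libraries and in each of the 12 fits without 1. With the library series as a term in the model, 280 genes were called, and within the second series alone, where WT_Oxarol has a single library, 44 were. Of the 1175 higher genes 174 were also called with that series term, and of the 623 lower genes 95 were. The 253 called genes chosen to be named were picked partly by small adjusted p or large change. Of these 253, 95 were also called with the series term, and the ones with values are told apart at the end of each account.

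**Figure D1:**
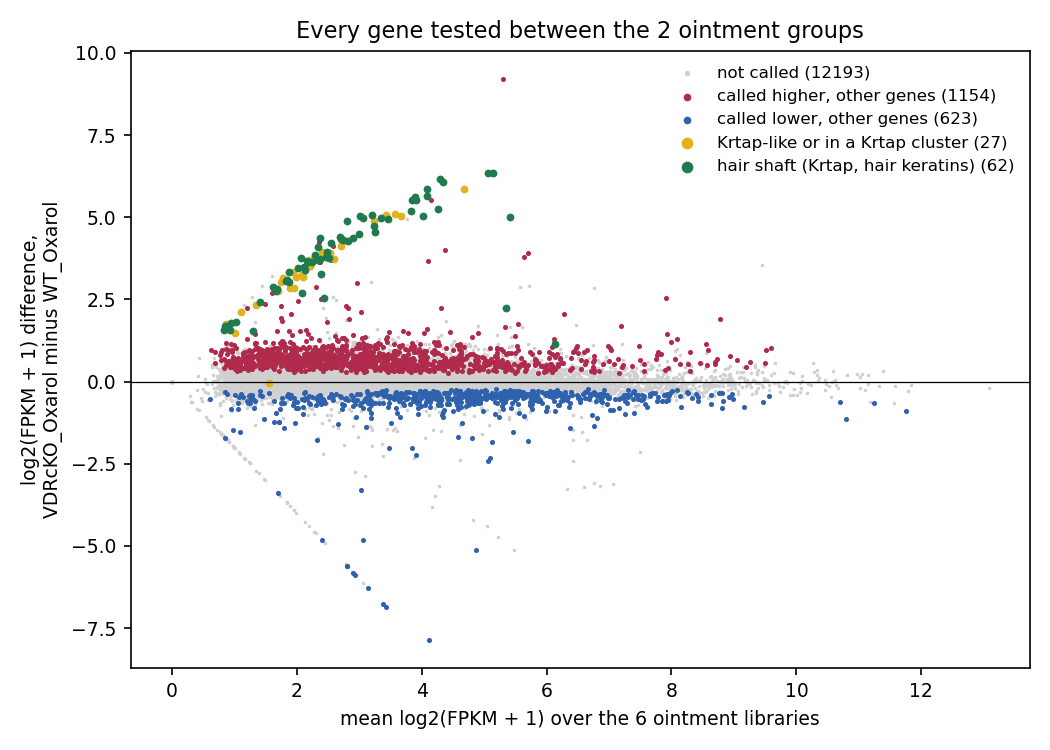
Difference between VDRcKO_Oxarol and WT_Oxarol (y axis, log2(FPKM + 1)) against the mean level over the 6 ointment libraries (x axis, log2(FPKM + 1)); each point is 1 of 14059 genes. Green hair shaft genes all lie above 0, between 1.16 and 6.35, and blue points mark the 623 genes called lower.

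Several of the genes with large decreases were low in ears without ointment, higher in WT_Oxarol and lower again in VDRcKO_Oxarol, among them a zinc importer, kallikreins, a serpin, a phospholipase and a beta-defensin. Slc39a4 (ZIP4), the zinc importer mutated in acrodermatitis enteropathica, had 12.9, 87.8 and 71.2 FPKM in WT_Oxarol and 0.393, 0.664 and 0.671 in VDRcKO_Oxarol, beside 0.317 to 0.589 in the 6 ears without ointment. The difference was -4.83 ± 0.53 (limma adjusted p = 0.00256). WT_Oxarol replicate 1 was the lowest of its group for this gene, as it was for Cyp24a1, and it was still far above every VDRcKO_Oxarol library. Slc30a4, a zinc exporter, was called higher, with 9.27, 9.11 and 10.7 FPKM against 6.81, 5.64 and 6.13. Cnnm4, a transporter linked to magnesium extrusion, had 25.8, 28.4 and 30.7 FPKM in WT_Oxarol and 12.03, 13.1 and 13.7 in VDRcKO_Oxarol (-1.07 ± 0.09, limma adjusted p = 0.000689). Its VDRcKO_Oxarol libraries lay below all 9 wild-type libraries, whose lowest value was 18.5 FPKM. Of the called genes given here, Slc39a4 and Cnnm4 stayed called with the series term and Slc30a4 did not (limma adjusted p = 0.0543).

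Kallikreins are secreted serine proteases that cut the links between corneocytes and activate other proteases of the outer epidermis. Of 10 tested, 4 were called lower (40%, all genes 4.43%) and 0 higher (all genes 8.71%), and their median difference was -0.52. Of those 4 genes, 1 stayed called with the series term. The count ranged from 2 to 5 over the fits without 1 library, with 2 without WT_Oxarol replicate 2. Klk12 had 8.86, 49.1 and 32.9 FPKM in WT_Oxarol and 1.37, 2.08 and 1.49 in VDRcKO_Oxarol, where all 3 libraries lay within the 0.819 to 2.46 FPKM of ears without ointment. Its difference was -3.28 ± 0.46 (limma adjusted p = 0.00559). Klk13 had 46.7, 109 and 86.8 FPKM against 10.5, 15.4 and 14.7, a difference of -2.43 ± 0.41 (limma adjusted p = 0.00957). Klk6 had 63.5, 138 and 99.7 FPKM against 31.8, 27.4 and 22.1, and its call was lost without WT_Oxarol replicate 2 (limma adjusted p = 0.0584). In VDRcKO_Oxarol both Klk13 and Klk6 stayed above the means of WT_PBS and untreated ears. Klk9 differed by -0.59 ± 0.16, a call that was lost without WT_PBS replicate 1, WT_Oxarol replicates 2 or 3 or any single VDRcKO_Oxarol replicate (limma adjusted p = 0.0542 to 0.109). The abundant kallikrein Klk5 was at 157, 125 and 152 FPKM in WT_Oxarol and 118, 150.2 and 127 in VDRcKO_Oxarol, with a limma adjusted p of 0.583. Klk8 had 96.8, 155 and 122 FPKM against 83.4, 103 and 82.3 and Klk11 had 75.1, 97.4 and 99.2 against 54.2, 64.3 and 59.1, and neither passed the test (limma adjusted p = 0.194 and 0.0695). Prss27, another serine protease of the upper epidermis, had 28.7, 50.9 and 49.2 FPKM against 11.5, 13.7 and 12.04 and was not called without WT_Oxarol replicates 2 or 3 or any single VDRcKO_Oxarol replicate (limma adjusted p = 0.0726 to 0.102). The series term kept the call for Klk12 and ended it for the other called genes given here (limma adjusted p = 0.0509 to 0.16).

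Among 30 tested protease inhibitors of the epidermis, 3 were called lower (10%, all genes 4.43%) and 1 higher (3.33%, all genes 8.71%). Serpina9, a serpin also known from germinal centre B cells, had 11.7, 35.8 and 22.7 FPKM in WT_Oxarol and 4.397, 6.19 and 3.37 in VDRcKO_Oxarol, a difference of -2.01 ± 0.35 (limma adjusted p = 0.0108). Serpinb2, the plasminogen activator inhibitor of the upper epidermis, showed another pattern: it had 188, 168 and 138 FPKM in WT_Oxarol, 118 to 218 in the ears without ointment and 67.5, 82.1 and 79.1 in VDRcKO_Oxarol. Its difference was -1.10 ± 0.16 (limma adjusted p = 0.00574), and the VDRcKO_Oxarol libraries were the 3 lowest of the 12. Cst6 (cystatin E/M), the inhibitor of cathepsins L and V and legumain in the cornifying layer, was the higher one and is described with Casp14. Spink5 (LEKTI), the inhibitor of kallikreins, had 141, 128 and 105 FPKM in WT_Oxarol against 93.8, 89.9 and 96.8, without overlap but with a limma adjusted p of 0.136. Serpina9 and Serpinb2 stayed called with the series term.

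Further genes that were high in WT_Oxarol and lower in VDRcKO_Oxarol have varied roles. Pla2g4f, a cytosolic phospholipase A2 that frees fatty acids from membranes, had 71.6, 78.3 and 70.3 FPKM in WT_Oxarol against 20.8, 30.3 and 24.6 (-1.52 ± 0.19, limma adjusted p = 0.00349), and the ears without ointment had 15.9 to 29.8. The symbol 2610528A11Rik, the mouse gene for the ligand of the homing receptor Gpr15, had 21.3, 36.6 and 27.98 FPKM against 5.74, 6.37 and 6.37 (-2.02 ± 0.31, limma adjusted p = 0.00765). It was at 1.16, 0.454 and 0.643 FPKM in untreated ears and 9.77, 11.6 and 4.01 in WT_PBS, so VDRcKO_Oxarol lay with the PBS ears. Defb14, the mouse counterpart of human beta-defensin 3, had 106, 200.4 and 115 FPKM against 43.05, 50.7 and 56.8 (-1.42 ± 0.26). Oas1f, of the oligoadenylate synthetase family, had 133, 155 and 163 FPKM against 70.9, 71.96 and 76.2 (-1.03 ± 0.16), whereas Oas1a and Oasl1 of the same family were higher. Ass1, the argininosuccinate synthase of arginine synthesis, had 33.9, 44.7 and 48.1 FPKM against 22.7, 21.6 and 22.2, and the transaminase gene Gpt had 48.2, 46.4 and 54.5 against 22.7, 26.4 and 25.5. Cib2, a calcium- and integrin-binding protein, had 81.4, 80.2 and 96.6 FPKM against 46.5, 42.5 and 47.3, and Rbp7, a retinol-binding protein, had 13.7, 19.8 and 18.98 against 9.13, 9.004 and 5.55. None of these genes overlapped between the groups. The same held for 1840 of all 1848 called genes, so it adds no support to these calls. After the series term was added, Pla2g4f, 2610528A11Rik, Oas1f, Ass1, Gpt, Cib2 and Rbp7 stayed called and Defb14 did not (limma adjusted p = 0.0564).

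Tslp, a cytokine of epithelial cells that sets off type 2 responses, had 9.65, 19.3 and 24.3 FPKM in WT_Oxarol and 4.896, 7.38 and 6.98 in VDRcKO_Oxarol, beside 3.59 to 6.92 in ears without ointment. The groups did not overlap, and the difference was -1.26 ± 0.28 (limma adjusted p = 0.0212). The call was lost without WT_Oxarol replicates 2 or 3 or VDRcKO_Oxarol replicates 1 or 2 (limma adjusted p = 0.0512 to 0.0764). Crlf2, its receptor subunit, was higher in VDRcKO_Oxarol, at 4.59, 5.48 and 5.43 FPKM against 3.28, 2.98 and 2.42, and this call was lost without WT_Oxarol replicates 2 or 3 or VDRcKO_Oxarol replicates 2 or 3 (limma adjusted p = 0.0562 to 0.0657). Il4ra, a receptor subunit for the type 2 cytokines, had 11.4, 7.86 and 7.99 FPKM against 4.58, 4.92 and 4.79 with a limma adjusted p of 0.0879. Il33, another epithelial alarmin, had 26.8, 27.2 and 30.4 FPKM against 31.5, 30.4 and 32.6 with a limma adjusted p of 0.306. When the model held the series term, Tslp stayed called and Crlf2 did not (limma adjusted p = 0.0907).

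**Figure D2:**
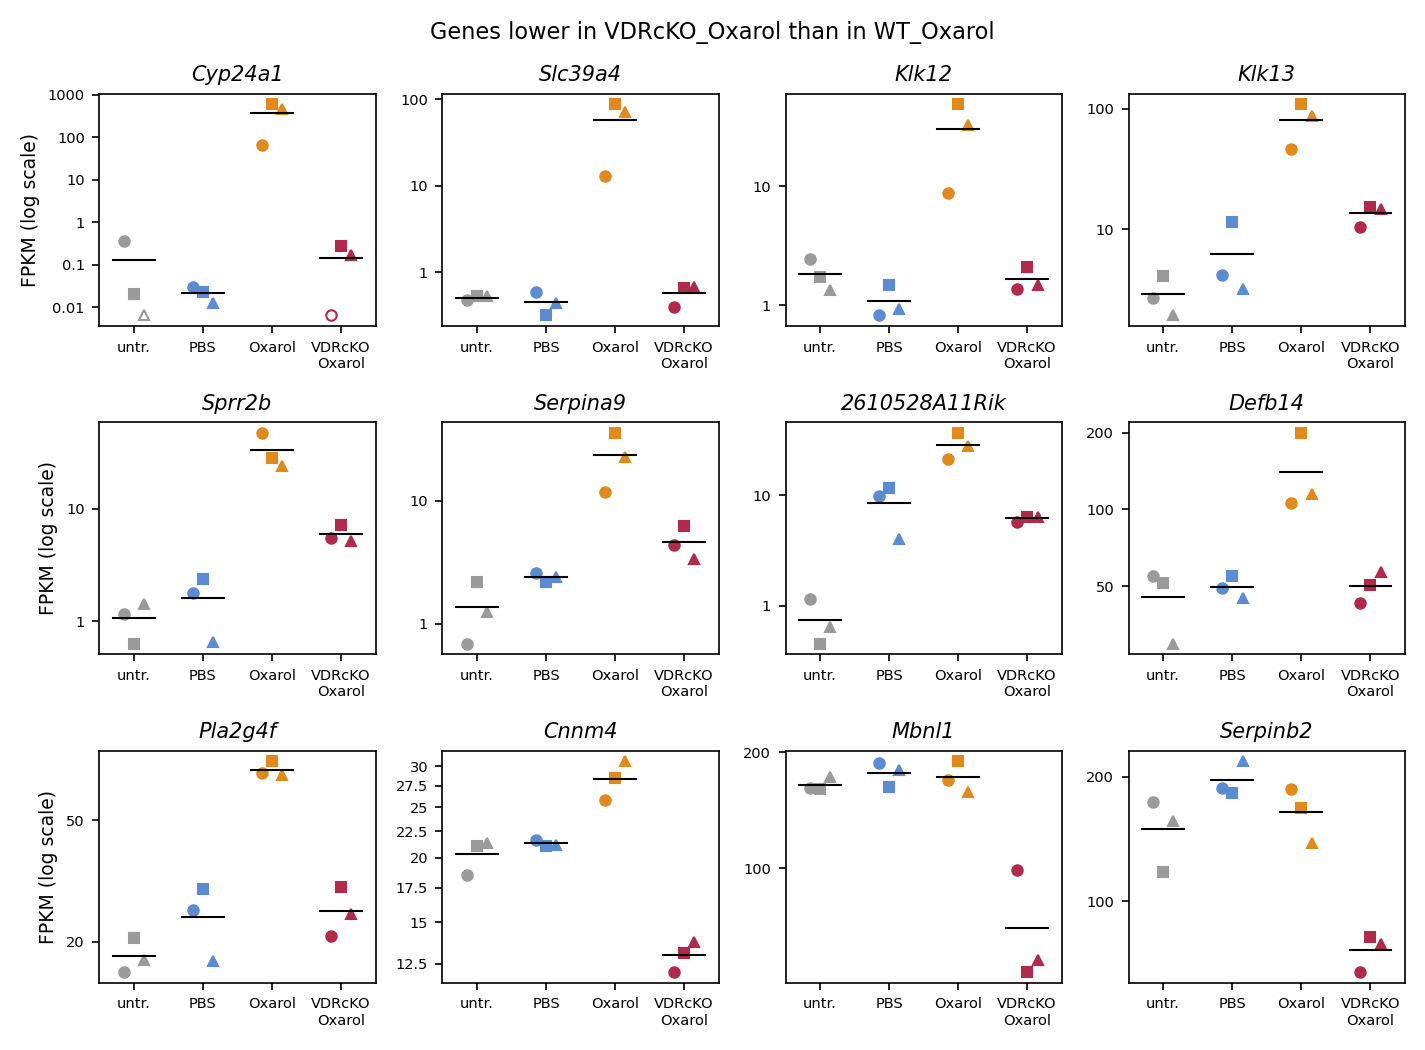
FPKM on a log axis in each library for 12 genes called lower; circles, squares and triangles are replicates 1, 2 and 3, black lines are group means, and open symbols are values of 0 drawn at the axis floor. In the first 10 panels every WT_Oxarol library stands above those of the other groups, and in the last 2, Mbnl1 and Serpinb2, VDRcKO_Oxarol stands below the 3 wild-type groups.

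The small proline-rich (Sprr) genes encode cross-bridging proteins of the cornified envelope and sit in 1 cluster of chromosome 3, and members of this family went in opposite directions. Of 11 tested, 5 were called lower (45.5%, all genes 4.43%) and 2 higher (18.2%, all genes 8.71%), and the median was -1.23. The 250 bases before the annotated start of 6 of them, from RefSeq on GRCm38.p6, are shown because neighbours of 1 cluster differed in sign. Written 5′ to 3′ on the gene's strand, capitals mark TGANTCA, the AP-1 site, and ATTTGCAT, the octamer site, searched on both strands.
Sprr2b (called lower, chr3:92316455-92316704, plus strand): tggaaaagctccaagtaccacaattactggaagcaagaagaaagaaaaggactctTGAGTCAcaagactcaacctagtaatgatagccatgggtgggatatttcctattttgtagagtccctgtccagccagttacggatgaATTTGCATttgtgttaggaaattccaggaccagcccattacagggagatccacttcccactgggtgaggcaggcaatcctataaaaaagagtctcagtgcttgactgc
Sprr2f (called lower, chr3:92364937-92365186, plus strand): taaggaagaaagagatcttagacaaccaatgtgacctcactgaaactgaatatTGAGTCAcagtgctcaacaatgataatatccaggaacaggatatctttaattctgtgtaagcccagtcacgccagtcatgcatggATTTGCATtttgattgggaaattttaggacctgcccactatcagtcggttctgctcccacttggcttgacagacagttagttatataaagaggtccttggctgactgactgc
Sprr2h (called lower, chr3:92385435-92385684, plus strand): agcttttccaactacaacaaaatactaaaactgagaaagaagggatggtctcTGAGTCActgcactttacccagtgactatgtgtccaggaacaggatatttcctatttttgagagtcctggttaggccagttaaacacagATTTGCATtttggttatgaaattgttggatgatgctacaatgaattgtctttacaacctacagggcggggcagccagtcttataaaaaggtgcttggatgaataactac
Sprr1b (called lower, chr3:92438780-92439029, minus strand): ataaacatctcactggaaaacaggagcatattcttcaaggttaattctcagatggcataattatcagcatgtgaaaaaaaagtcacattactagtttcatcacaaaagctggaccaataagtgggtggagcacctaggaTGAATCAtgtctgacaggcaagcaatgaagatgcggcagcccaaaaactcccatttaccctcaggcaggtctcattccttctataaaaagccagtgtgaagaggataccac
Sprr1a (called higher, chr3:92485882-92486131, minus strand): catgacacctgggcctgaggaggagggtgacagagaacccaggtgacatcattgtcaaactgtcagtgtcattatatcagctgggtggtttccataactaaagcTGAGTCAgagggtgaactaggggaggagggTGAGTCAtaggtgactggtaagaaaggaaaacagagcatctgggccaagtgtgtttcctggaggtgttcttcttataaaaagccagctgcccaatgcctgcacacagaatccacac
Sprr4 (called higher, chr3:92500494-92500743, minus strand): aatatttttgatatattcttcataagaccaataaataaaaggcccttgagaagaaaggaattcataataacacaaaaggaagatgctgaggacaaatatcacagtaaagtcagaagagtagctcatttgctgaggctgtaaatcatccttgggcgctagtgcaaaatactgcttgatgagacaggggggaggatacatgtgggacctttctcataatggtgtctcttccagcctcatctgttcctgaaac
The 3 Sprr2 windows each held 1 TGANTCA and 1 ATTTGCAT, Sprr1b held 1 TGANTCA, Sprr1a held 2, and Sprr4 held neither. Over all 32851 windows of the same length in the table, 6.75% held TGANTCA and 1.6% held ATTTGCAT. A direct repeat of receptor half-sites spaced by 3 bases was in 0.222% of all windows and in 0 of the 28 windows that matched 23 of the 30 genes with the largest decreases, which says only that these letters are not in these windows. Cyp24a1, Slc39a4, Serpina9, Defb14 and Tslp had no window to search. With a share of 0.222%, 0 of 28 was the likely outcome beforehand, so nothing is concluded from it.

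The genes called lower were Sprr2b, Sprr2a2, Sprr2h, Sprr2f and Sprr1b. Sprr2b had 46.99, 27.9 and 23.7 FPKM in WT_Oxarol and 5.47, 7.21 and 5.19 in VDRcKO_Oxarol, beside 0.633 to 2.39 in ears without ointment (-2.23 ± 0.30, limma adjusted p = 0.00507). Sprr2a2 had 117, 69.2 and 52.1 FPKM against 16.1, 16.2 and 11.1 (-2.32 ± 0.43, limma adjusted p = 0.0138). For both genes VDRcKO_Oxarol lay between the ears without ointment and WT_Oxarol, with no overlap on either side. Sprr2h had 53.7, 89.7 and 56.2 FPKM against 18.2, 19.7 and 14.7, and its call was lost without any single WT_Oxarol replicate or any single VDRcKO_Oxarol replicate (limma adjusted p = 0.0578 to 0.11). Sprr2f had 4.61, 4.56 and 2.44 FPKM against 1.47, 1.24 and 0.501, and its call was lost without WT_untreated replicate 2, WT_PBS replicate 1, WT_Oxarol replicates 1 or 2 or any single VDRcKO_Oxarol replicate (limma adjusted p = 0.0528 to 0.125). Sprr1b had 41.7, 69.5 and 42.1 FPKM against 12.9, 15.5 and 15.4, and its call was lost without WT_untreated replicate 2, WT_PBS replicate 1, any single WT_Oxarol replicate or any single VDRcKO_Oxarol replicate (limma adjusted p = 0.0605 to 0.144). Sprr2d was at 33.4, 37.7 and 19.7 FPKM against 9.55, 10.2 and 9.92 and Sprr2e at 4.25, 3.05 and 1.67 against 2.68, 1.13 and 0.763, and neither passed (limma adjusted p = 0.103 and 0.326). Sprr2 genes are close copies, so reads may be split among them. With the series term Sprr2b stayed called and the other called genes given here did not (limma adjusted p = 0.0648 to 0.185).

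Sprr4 and Sprr1a were the higher members. Sprr4 had 253, 217 and 150.02 FPKM in VDRcKO_Oxarol against 31.96, 7.22 and 7.88 in WT_Oxarol, 26.3, 24.2 and 35.3 in WT_PBS and 55.6, 30.7 and 33.96 in untreated ears. It was above all 9 wild-type libraries, with a difference of 3.92 ± 0.46 (limma adjusted p = 0.00303). Sprr1a had 740.3, 583 and 407 FPKM against 232, 298 and 227 (1.16 ± 0.23, limma adjusted p = 0.0149), and its call was lost without VDRcKO_Oxarol replicate 2 (limma adjusted p = 0.0507). The neighbours Sprr1a and Sprr1b thus differed in sign, Sprr1a with 1.16 and Sprr1b with -1.70. Sprr4 and Sprr1a stayed called with the series term.

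A set of genes was lower in VDRcKO_Oxarol than in all 3 wild-type groups, and for most of them the wild-type levels with and without ointment overlapped. Mbnl1, a regulator of RNA splicing, had 98.7, 53.6 and 57.8 FPKM against 169, 189.7 and 157 in WT_Oxarol, and 160.2 to 187 in the other wild-type ears (-1.34 ± 0.19, limma adjusted p = 0.00559). Its relative Mbnl3 had 7.23, 7.36 and 8.695 FPKM against 16.6, 16.5 and 14.7 (-0.95 ± 0.13). Dnase1l3, a secreted DNase of macrophages and dendritic cells, had 27.3, 28.6 and 30.1 FPKM against 53.4, 50.7 and 50.5 (-0.82 ± 0.07, limma adjusted p = 0.000689). Cldn4, a tight junction claudin, had 114, 112 and 94.3 FPKM against 197, 191 and 174 (-0.81 ± 0.10). Elovl6, which elongates long-chain fatty acids, had 34.1, 49.00 and 40.6 FPKM against 65.1, 75.7 and 65.9, whereas Elovl5, which elongates polyunsaturated ones, was higher with 75.2, 69.4 and 71.3 against 31.1, 46.7 and 42.8. Avpi1, named for its induction by vasopressin, had 108, 138 and 114 FPKM against 228, 249.7 and 227. The uncharacterised symbol 5430417L22Rik had 23.1, 25.8 and 26.7 FPKM against 53.6, 47.7 and 60.7 (-1.06 ± 0.10, limma adjusted p = 0.000689). Gadl1, a decarboxylase related to those of cysteine sulfinic acid and glutamate, fell to 0.901, 1.32 and 1.19 FPKM from 5.22, 3.81 and 5.19 in WT_Oxarol, which was itself below most of the 4.07 to 12.1 FPKM of the ears without ointment. Among the 87 core genes were 3 subunits of the RNA exosome, the complex that trims and degrades RNA: Exosc8 (35.3, 32.2 and 28.3 FPKM against 51.1, 56.3 and 61.03), Exosc1 (20.6, 19.8 and 19.8 against 28.4, 36.04 and 36.2) and Exosc7 (52.4, 61.8 and 56.6 against 88.9, 93.5 and 97.3). All 3 were below every wild-type library. They were singled out after their values were seen, among 87 core lower genes of 14059 tested. The other subunits of the exosome were not counted, so nothing is concluded about the complex. Hmgn1, a nucleosome-binding protein, had 423, 449 and 434 FPKM against 694, 797 and 759, and the lowest untreated library reached down to this range. Mbnl1, Mbnl3, Dnase1l3, Cldn4, Elovl6, Elovl5, Avpi1, 5430417L22Rik, Gadl1, Exosc8, Exosc1, Exosc7 and Hmgn1 stayed called with the series term.

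Other genes were higher in all 3 VDRcKO_Oxarol libraries than in all 9 wild-type libraries. Casp14, the caspase of terminal keratinocyte differentiation that takes part in filaggrin breakdown, had 156, 167 and 148 FPKM in VDRcKO_Oxarol, 41.6, 40.4 and 29.99 in WT_Oxarol and 19.1 to 40.7 in ears without ointment. Its difference was 2.06 ± 0.18 (limma adjusted p = 0.000689), and the call held in all 24 alternative settings. Cst6 had 445, 398 and 325 FPKM against 175, 155 and 174 (1.20 ± 0.19, limma adjusted p = 0.00765), above all 9 wild-type libraries. Defb6, a beta-defensin, had 705, 534 and 519.6 FPKM against 151, 82.7 and 74.8 (2.56 ± 0.30, limma adjusted p = 0.00299), so Defb6 and Defb14 went in opposite directions. Defb1 had 27.01, 25.9 and 28.9 FPKM against 19.3, 16.6 and 16.8, and its call was lost without WT_Oxarol replicates 2 or 3 or any single VDRcKO_Oxarol replicate (limma adjusted p = 0.0503 to 0.0701). Ucp2, an uncoupling protein of mitochondria, had 43.4, 35.4 and 28.5 FPKM against 16.3, 15.3 and 15.1 (1.13 ± 0.13). Fetub, a fetuin, had 6.08, 5.14 and 4.51 FPKM against 1.36, 0.883 and 1.23 (1.53 ± 0.18), and Lrat, which makes retinyl esters, had 3.48, 2.48 and 2.03 against 0.222, 1.096 and 0.217 (1.31 ± 0.21). Sdc3, a heparan sulfate carrier, had 10.1, 10.3 and 8.42 FPKM against 1.88, 1.75 and 2.34 (1.83 ± 0.23), and Lrrc15, a membrane protein of leucine-rich repeats, had 9.11, 10.03 and 6.62 against 1.09, 0.764 and 0.388 (2.46 ± 0.35). Casp14, Cst6, Defb6, Defb1, Ucp2, Fetub, Lrat, Sdc3 and Lrrc15 stayed called with the series term. Lrat passed the filter only with the VDRcKO_Oxarol libraries counted.

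Other genes were low in WT_Oxarol and stood in VDRcKO_Oxarol at or above the level of ears without ointment. Scgb1a1, a secretoglobin, had 14.2, 13.9 and 14.8 FPKM in VDRcKO_Oxarol, 3.33, 1.43 and 1.87 in WT_Oxarol and 6.71 to 14.2 in ears without ointment (2.30 ± 0.23, limma adjusted p = 0.00167). Btc (betacellulin), a ligand of the EGF receptor, had 14.3, 16.02 and 17.8 FPKM against 2.97, 1.99 and 4.08 (2.11 ± 0.29, limma adjusted p = 0.00558) and was the single called gene among 12 tested genes of the receptor and its ligands (8.33%, all genes 8.71%). Ccl27a, the keratinocyte chemokine that draws skin-homing T cells, had 327, 257 and 213 FPKM against 126, 61.4 and 67.4 (1.69 ± 0.26, limma adjusted p = 0.00765), with 130.4 to 274 in the ears without ointment. Il18, a cytokine stored in keratinocytes, had 62.9, 67.1 and 68.7 FPKM against 35.3, 25.4 and 32.1 (1.08 ± 0.16), with 44.3 to 67.1 in ears without ointment. Epcam, an adhesion molecule of Langerhans cells and follicle cells, had 58.4, 54.9 and 48.2 FPKM against 41.4, 22.6 and 28.2, and its call was lost without WT_Oxarol replicate 2 or VDRcKO_Oxarol replicates 1 or 2 (limma adjusted p = 0.054 to 0.0614). Of the called genes given here, Scgb1a1, Btc, Ccl27a and Il18 stayed called with the series term and Epcam did not (limma adjusted p = 0.0667).

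Keratins and regulators of the epidermis changed in a few members. Of 22 tested epidermal keratins, 4 were called higher (18.2%, all genes 8.71%) and 0 lower (all genes 4.43%), with a median of 0.16. Krt17, the keratin of follicles and of stressed epidermis, had 548, 449.9 and 316 FPKM against 193, 171 and 156 (1.30 ± 0.18, limma adjusted p = 0.00559). Krt79, a keratin of the follicle infundibulum and sebaceous duct, had 194, 188 and 169 FPKM against 82.4, 99.2 and 90.1 (1.01 ± 0.13, limma adjusted p = 0.00349). The basal keratin Krt14 had 1249, 1406 and 1197 FPKM against 1836, 1417 and 1417, and the suprabasal keratin Krt1 had 488, 620.4 and 618 against 344, 502 and 415 (limma adjusted p = 0.351 and 0.15). Krt16, a stress keratin, had 94.9, 105 and 74.1 FPKM against 165, 159.7 and 131, without overlap, and did not pass (limma adjusted p = 0.0657). Among 37 keratinocyte transcription factors, 6 were called higher (16.2%, all genes 8.71%) and 0 lower (2 to 9 higher over the fits without 1 library, the lowest without WT_Oxarol replicate 2 or any single VDRcKO_Oxarol replicate). Cebpa, a driver of keratinocyte differentiation, had 42.3, 45.9 and 55.4 FPKM against 25.7, 17.7 and 26.9 (1.01 ± 0.16), and Sox21, which acts in hair and other surface epithelia, had 4.87, 4.39 and 4.61 against 1.66, 1.001 and 1.69 (1.21 ± 0.17). Klf4, a barrier factor, had 55.7, 73.8 and 80.8 FPKM against 60.6, 41.8 and 59.97 with a limma adjusted p of 0.188. Outside the list, Irx3, a homeobox factor, had 13.2, 11.1 and 13.5 FPKM against 5.901, 5.19 and 6.03 (1.02 ± 0.15). Krt17, Krt79, Cebpa, Sox21 and Irx3 stayed called with the series term.

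The envelope scaffold list, which holds loricrin, involucrin and filaggrin-type genes, had 9 of 30 members called higher (30%, all genes 8.71%) and 2 lower (6.67%, all genes 4.43%), with a median of 0.30. Over the fits without 1 library the higher count ran from 2 to 14, with 2 without WT_Oxarol replicate 2. Ivl (involucrin), an early envelope protein, had 62.3, 49.5 and 44.3 FPKM against 32.8, 20.4 and 22.7, and its call was lost without WT_Oxarol replicate 2 (limma adjusted p = 0.0506). Lor (loricrin), the main protein of the envelope, had 884, 1091 and 977 FPKM against 720.1, 529.8 and 752 without overlap, and did not pass (limma adjusted p = 0.0595). Flg2, a filaggrin relative, had 66.4, 72.8 and 69.1 FPKM against 61.3, 29.04 and 50.1, also without overlap and without passing (limma adjusted p = 0.0768). Of 18 late cornified envelope genes, 3 were called higher (16.7%, all genes 8.71%) and 0 lower, and none of the calls held in all 12 fits without 1 library. Tchhl1 and Crnn are among the higher members of the scaffold list and follow the hair libraries, as described with the hair genes. Asprv1, a protease that processes filaggrin, had 536, 573 and 513 FPKM against 391, 304 and 314, and its call was lost without WT_Oxarol replicate 2 or VDRcKO_Oxarol replicates 1 or 2 (limma adjusted p = 0.0501 to 0.0631). Ivl and Asprv1 stayed called with the series term.

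**Figure D3:**
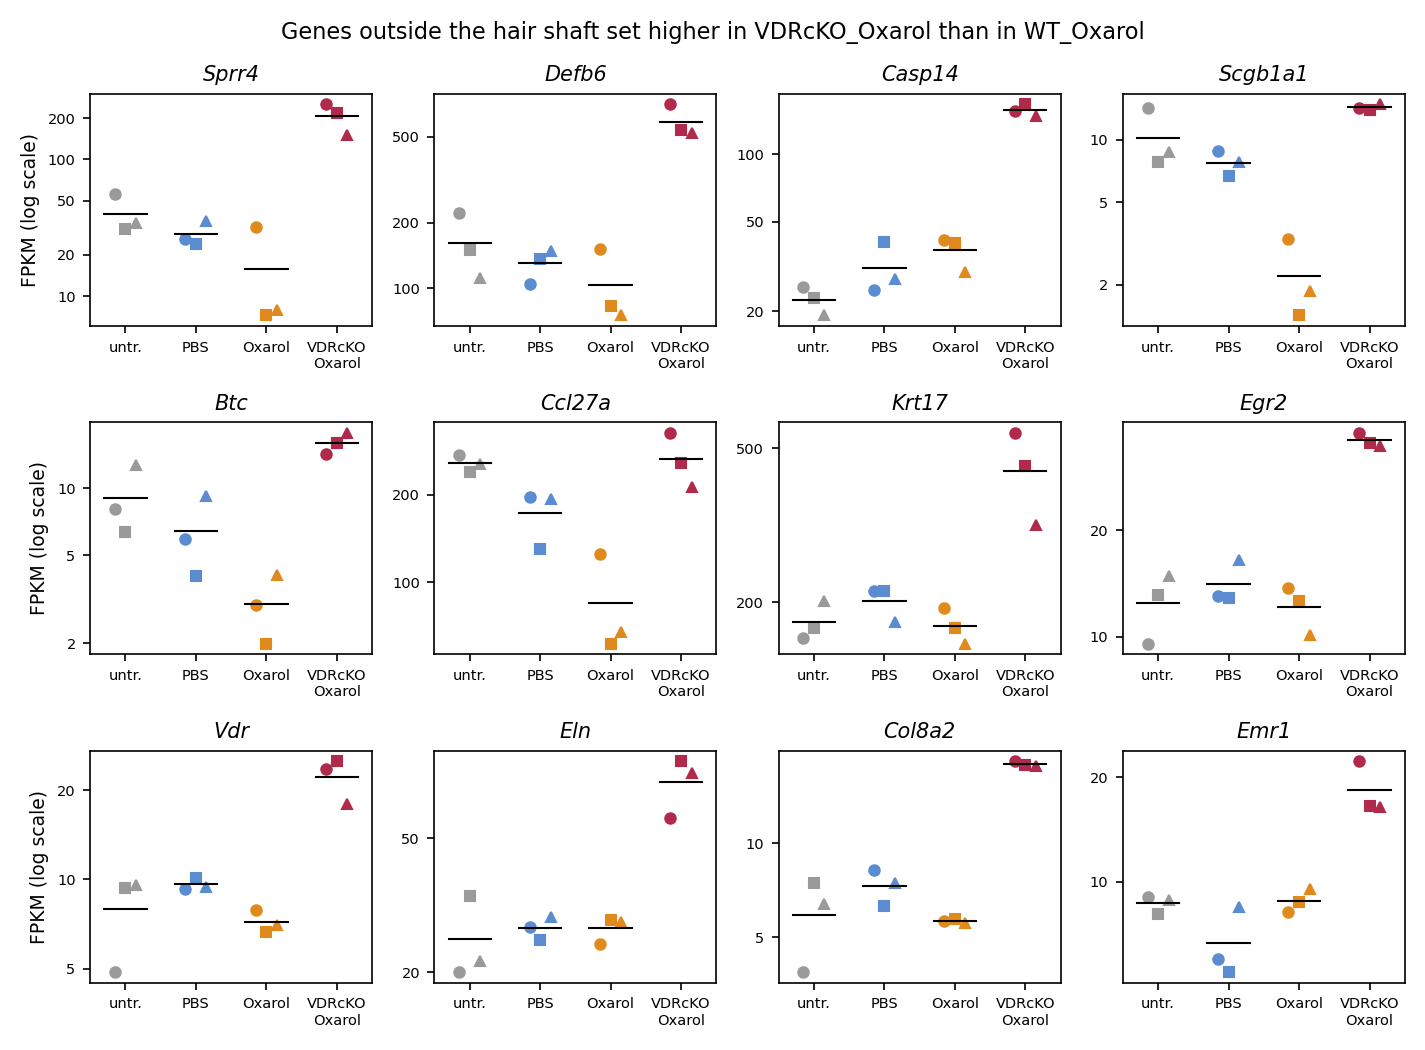
FPKM on a log axis in each library for 12 genes outside the hair shaft set called higher; circles, squares and triangles are replicates 1, 2 and 3 and black lines are group means. VDRcKO_Oxarol is above every WT_Oxarol library in all 12 panels, and for Scgb1a1, Btc and Ccl27a the WT_Oxarol mean is also below those of untreated and PBS ears.

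Lists of collagen, dermal fibroblast and cartilage genes had many members called higher and none lower. The lists are not limited to cells without Cre. The collagen list takes every collagen symbol, and Sox9, called higher, is a member of both the cartilage and the follicle regulator lists. Of 33 tested collagen genes, 23 were called higher (69.7%, all genes 8.71%) and 0 lower (all genes 4.43%), with a median of 0.85. Of those 23, 7 stayed called with the series term. The count was 11 to 26 over the fits without 1 library, with 11 without WT_Oxarol replicate 2 or VDRcKO_Oxarol replicate 2, and 10 collagens were called in all of them. Summed over the list, collagens were at 1738 to 2587 FPKM in VDRcKO_Oxarol, 687 to 969 in WT_Oxarol, 814 to 1007 in WT_PBS and 543 to 1066 in untreated ears. Col8a2, a chain of the network-forming collagen VIII, had 18.2, 17.7 and 17.6 FPKM against 5.63, 5.72 and 5.55 (1.504 ± 0.17, limma adjusted p = 0.00288). Col5a2 had 24.98, 28.99 and 26.6 FPKM against 11.6, 11.7 and 12.1, Col4a2 of basement membranes had 12.3, 10.5 and 9.72 against 3.91, 4.65 and 4.76, and Col6a2 had 39.4, 51.04 and 49.4 against 27.7, 23.02 and 29.8. The abundant fibrillar chain Col1a1 had 603, 1100.1 and 924 FPKM against 271, 158 and 270.3 (1.90 ± 0.42), and its call was lost without WT_Oxarol replicate 2 or VDRcKO_Oxarol replicates 2 or 3 (limma adjusted p = 0.0563 to 0.0755). Col3a1 had 336, 466 and 420.3 FPKM against 181, 102 and 169, and its call was lost without WT_Oxarol replicate 2 or VDRcKO_Oxarol replicate 2 (limma adjusted p = 0.0523 to 0.0538). The series term kept the call for Col8a2, Col5a2 and Col4a2 and ended it for Col6a2, Col1a1 and Col3a1 (limma adjusted p = 0.0543 to 0.0993).

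Of 32 dermal fibroblast genes, which include some collagens, 18 were called higher (56.2%, all genes 8.71%) and 0 lower, with a median of 0.73, and 5 of the 18 stayed called with the series term. The count was 7 without WT_Oxarol replicate 2 and up to 23 without another library, and the summed level was 5340.1 to 6152 FPKM in VDRcKO_Oxarol against 3506 to 4361 in WT_Oxarol and 4502 to 4689 in untreated ears. Eln (elastin) had 57.5, 84.8 and 78.3 FPKM against 24.2, 28.7 and 28.1 (1.40 ± 0.19, limma adjusted p = 0.00533), and Lox, the oxidase that crosslinks elastin and collagen, had 27.9, 34.2 and 38.5 against 15.2, 20.1 and 15.9 (0.93 ± 0.16). Fn1 (fibronectin) had 51.1, 53.8 and 48.8 FPKM against 25.9, 23.02 and 26.5, Fbn1 (fibrillin) had 13.2, 13.5 and 16.2 against 8.203, 6.89 and 9.39, and Mfap4, a microfibril protein, had 114, 123.4 and 113 against 82.6, 63.5 and 75.2. Of 22 cartilage genes, 9 were called higher (40.9%, all genes 8.71%) and 0 lower, with a median of 0.73. The count was 3 without VDRcKO_Oxarol replicate 2, and 3 of the 9 stayed called with the series term. Col2a1, the main collagen of cartilage, had 12.1, 13.04 and 13.4 FPKM against 1.73, 2.92 and 3.62 (1.91 ± 0.23, limma adjusted p = 0.00303). Col9a3 had 27.3, 30.04 and 27.7 FPKM against 9.17, 11.97 and 14.3, and Col11a2 had 4.56, 4.32 and 3.32 against 1.04, 1.45 and 1.56. In whole skin, more cells of a type and more RNA per cell cannot be told apart, and the share of dermis and cartilage in each ear piece was not measured. After the series term was added, Eln, Lox, Fn1, Mfap4, Col2a1, Col9a3 and Col11a2 stayed called and Fbn1 did not (limma adjusted p = 0.0543).

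Matrix proteases and their inhibitors had 8 of 23 members called higher (34.8%, all genes 8.71%) and 1 lower (4.35%, all genes 4.43%), with a median of 0.42, and 2 of the 8 stayed called with the series term. The count was 1 without WT_Oxarol replicate 2 or VDRcKO_Oxarol replicate 2. Mmp11 (stromelysin 3) had 7.58, 5.58 and 5.18 FPKM against 1.22, 1.43 and 1.697 (1.53 ± 0.25, limma adjusted p = 0.00898). Outside the list, Ctsk, the collagen-cutting cathepsin K, had 115, 134 and 141 FPKM against 69.1, 47.7 and 66.1 (1.09 ± 0.15, limma adjusted p = 0.00533). Mmp12, the macrophage elastase, had 9.11, 7.398 and 4.22 FPKM against 2.98, 1.49 and 0.692, and its call was lost without WT_Oxarol replicate 2 or VDRcKO_Oxarol replicates 1 or 2 (limma adjusted p = 0.0508 to 0.054). Mmp2 had 146, 169 and 165 FPKM against 134, 124 and 136 and Timp1 had 20.6, 22.5 and 14.2 against 11.01, 17.00 and 17.3, and neither passed (limma adjusted p = 0.193 and 0.337). Mmp11, Ctsk and Mmp12 stayed called with the series term.

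Of 28 macrophage genes, 13 were called higher (46.4%, all genes 8.71%) and 0 lower, with a median of 0.45. Of those 13, 2 stayed called with the series term. Without WT_Oxarol replicate 2 or VDRcKO_Oxarol replicate 1 the count was 3. The summed level was 2035 to 2359.5 FPKM in VDRcKO_Oxarol, 1372 to 1683 in WT_Oxarol, 1243 to 1427 in WT_PBS and 1371 to 1589 in untreated ears. Emr1, a surface receptor that marks tissue macrophages, had 22.2, 16.5 and 16.4 FPKM against 8.17, 8.74 and 9.53 (0.97 ± 0.15, limma adjusted p = 0.00765). Lyz2, the lysozyme of myeloid cells, had 643, 473 and 497 FPKM against 238, 264 and 325 (0.96 ± 0.16), and Mrc1, the mannose receptor, had 21.1, 19.9 and 20.8 against 14.6, 14.1 and 13.3 (0.53 ± 0.08). Outside the list, Mpeg1, a pore-forming protein of macrophages, had 13.2, 9.14 and 10.2 FPKM against 3.61, 4.75 and 4.77 (1.13 ± 0.15), Ncf4, a subunit of the phagocyte oxidase, had 16.99, 12.9 and 12.8 against 6.23, 6.41 and 6.14 (1.06 ± 0.12), and Gpnmb had 31.1, 31.8 and 36.6 against 15.8, 15.2 and 17.3 (1.00 ± 0.12). Gpnmb is a member of the melanocyte list and counts there among the genes called higher, so it does not mark macrophages alone. Csf1r, the growth factor receptor of macrophages, had 36.1, 27.3 and 32.00 FPKM against 18.98, 18.1 and 20.5, and its call was lost without WT_Oxarol replicates 1 or 2 or VDRcKO_Oxarol replicates 1 or 3 (limma adjusted p = 0.0612 to 0.0876). For these genes the VDRcKO_Oxarol libraries were above all 9 wild-type libraries. When the model held the series term, Emr1, Mrc1, Mpeg1, Ncf4 and Gpnmb stayed called and Lyz2 and Csf1r did not (limma adjusted p = 0.051 to 0.122).

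Genes of class I antigen presentation were among those called higher. H2-K1, Psmb9, Psmb8 and Tap1 lie near Rxrb in the major histocompatibility complex, and H2-D1 is another gene of that complex. Strain background and the deletion cannot be told apart there, as described below with the neighbours of Rxrb. B2m, the light chain, had 1221, 1034 and 1060.4 FPKM against 493, 513 and 612 (1.04 ± 0.16, limma adjusted p = 0.00726), and H2-K1 had 267, 258 and 256 against 120.1, 106 and 141 (1.10 ± 0.14, limma adjusted p = 0.00349). H2-D1 had 811, 746 and 699.6 FPKM against 486, 457 and 537, and its call was lost without WT_Oxarol replicates 1 or 2 or VDRcKO_Oxarol replicates 1 or 2 (limma adjusted p = 0.0556 to 0.0855). Psmb9, an immunoproteasome subunit, had 34.2, 21.4 and 17.99 FPKM against 11.8, 13.2 and 13.3, and its call was lost without any single WT_Oxarol replicate or VDRcKO_Oxarol replicates 1 or 2 (limma adjusted p = 0.0522 to 0.0728). Psmb8 had 60.4, 46.7 and 39.8 FPKM against 32.5, 32.2 and 42.6 and Tap1, the peptide transporter, had 19.1, 13.7 and 16.9 against 11.1, 11.2 and 12.9 (limma adjusted p = 0.0862 and 0.114). Interferon-induced genes had 7 of 31 called higher (22.6%, all genes 8.71%) and 0 lower, a median of 0.55 and 20 members whose libraries did not overlap, against 27.9% of all genes that were higher without overlap. The called count was 2 without WT_Oxarol replicate 2 or VDRcKO_Oxarol replicate 1, and 1 of the 7 stayed called with the series term. Oasl1 had 2.17, 1.57 and 1.06 FPKM against 0.0812, 0.453 and 0.387 (0.98 ± 0.17) and Oas1a had 5.76, 2.74 and 2.898 against 1.204, 1.31 and 0.699 (1.17 ± 0.24), both low in every library. Oasl1, the 1 interferon call kept with the series term, passed the filter only through the VDRcKO_Oxarol libraries. Isg15 had 23.7, 13.8 and 18.8 FPKM against 7.58, 15.1 and 12.98 and Ifit1 had 7.49, 3.86 and 3.52 against 1.54, 4.91 and 3.31, and neither passed (limma adjusted p = 0.181 and 0.395). VDRcKO_Oxarol replicate 1 was the highest of its group for Oasl1, Oas1a, Isg15, Ifit1, Psmb8, Psmb9 and Tap1. With the series term B2m, H2-K1 and Oasl1 stayed called and H2-D1, Psmb9 and Oas1a did not (limma adjusted p = 0.0659 to 0.103).

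Other leukocyte lists had fewer calls. Of 23 T cell genes, 5 were called higher (21.7%, all genes 8.71%) and 0 lower, with a median of 0.34. The count was 1 without WT_Oxarol replicate 2 or VDRcKO_Oxarol replicate 1, and 3 of the 5 stayed called with the series term. Gzmc, a granzyme, had 1.36, 2.07 and 2.23 FPKM against 0.284, 0.259 and 0.339 (1.14 ± 0.16) at low levels, and it passed the filter only through the VDRcKO_Oxarol libraries. Cd3e, a chain of the T cell receptor complex, had 10.3, 9.12 and 10.6 FPKM against 6.199, 5.95 and 6.33, and its call was lost without WT_Oxarol replicate 2 or VDRcKO_Oxarol replicate 1 (limma adjusted p = 0.0539 to 0.061). The list of MHC class II and dendritic cell genes had 3 of 22 called higher (13.6%, all genes 8.71%) and 0 lower, and its summed level of 3783 to 4741 FPKM overlapped the 3797 to 4418 of WT_Oxarol. Cd207 (langerin) had 12.7, 12.3 and 8.89 FPKM against 9.95, 6.73 and 8.12 with a limma adjusted p of 0.113. Neutrophil genes had 1 of 7 called higher (14.3%, all genes 8.71%), and S100a8 had 105, 73.5 and 53.7 FPKM against 49.3, 61.6 and 56.1. Mast cell genes had 1 of 13 called higher (7.69%, all genes 8.71%), with Mcpt4 at 31.9, 28.2 and 29.3 FPKM against 22.2, 20.5 and 19.4 and a limma adjusted p of 0.0586. Of 27 chemokines, 6 were called higher (22.2%, all genes 8.71%) and 0 lower. Cxcl12, the stromal chemokine that binds Cxcr4, had 89.8, 84.2 and 90.2 FPKM against 48.3, 47.6 and 45.4 (0.89 ± 0.09, limma adjusted p = 0.00156), and Ccl9 had 19.8, 16.8 and 15.3 against 9.38, 11.1 and 11.04 (0.66 ± 0.13). Ccl8, a monocyte chemokine, had 738, 625 and 584 FPKM against 374, 331 and 422, and its call was lost without WT_PBS replicate 2, any single WT_Oxarol replicate or any single VDRcKO_Oxarol replicate (limma adjusted p = 0.051 to 0.115). Of the called genes given here, Gzmc, Cd3e and Cxcl12 stayed called with the series term and Ccl9 and Ccl8 did not (limma adjusted p = 0.0676 to 0.122).

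Markers of further cell types in the ear had few calls. The differences of muscle, adipocyte, endothelial and nerve genes also lay mostly above 0, with medians of the order of the 0.45 of the macrophage list. Most genes did so too: 8440 of all 14059 lay above 0, with a median of 0.0786. That median was -0.0372 after quantile normalization and 0.00577 after median-of-ratios scaling. The counts above 0 given here are from the main fit, without such scaling. Skeletal muscle genes had 22 of 27 differences above 0 with a median of 0.42 and 2 called higher (7.41%, all genes 8.71%), at a summed 6293 to 7550.4 FPKM against 4358 to 7140.00 in WT_Oxarol and 8376 to 17561 in untreated ears, and Ckm had 419, 369 and 335 against 161, 225 and 267 (limma adjusted p = 0.164). Adipocyte genes had 17 of 19 above 0 with a median of 0.60 and 1 called higher (5.26%, all genes 8.71%), at 2391 to 3369 FPKM against 1730.1 to 2485, with Adipoq at 82.8, 61.8 and 54.7 against 36.7, 46.6 and 50.6 (limma adjusted p = 0.329). The 1 adipocyte call was Cebpa, which also counts among the keratinocyte transcription factors. Endothelial genes had 16 of 20 above 0 with a median of 0.38 and 2 called higher (10%, all genes 8.71%), at a summed 157 to 185 FPKM against 113 to 131. Schwann cell and nerve genes had 11 of 13 above 0 with a median of 0.36 and 1 called higher (7.69%, all genes 8.71%), Egr2, which also counts among the immediate early genes. Melanocyte genes had 2 of 13 called higher (15.4%, all genes 8.71%) and 2 lower (15.4%, all genes 4.43%). Sebaceous gland genes had 1 of 20 called higher (5%, all genes 8.71%) and 1 lower (5%, all genes 4.43%), and their summed level of 4286 to 4684 FPKM overlapped the 4368 to 5794 of WT_Oxarol. The part that the makeup of the ear pieces plays in the dermal, cartilage, macrophage and other marker results was not tested.

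The calls among cell cycle and respiratory chain genes were all lower ones. Of 40 cell cycle genes, 6 were called lower (15%, all genes 4.43%) and 0 higher, 39 had a difference below 0, and the median was -0.33. None of the calls held in all 12 fits without 1 library or with the series term. Pcna, the sliding clamp of DNA replication, had 60.7, 63.8 and 66.7 FPKM against 91.3, 91.7 and 96.4, and its call was lost without WT_Oxarol replicate 2 or VDRcKO_Oxarol replicates 1 or 2 (limma adjusted p = 0.0578 to 0.0642). Mki67 had 3.02, 3.300 and 3.02 FPKM against 6.18, 3.86 and 3.83 and Mcm5, a helicase subunit, had 8.197, 7.36 and 7.45 against 13.1, 11.9 and 10.2, without passing (limma adjusted p = 0.18 and 0.0836). Of 74 respiratory chain genes, 11 were called lower (14.9%, all genes 4.43%) and 0 higher, with a median of -0.12 and a count of 1 to 21 over the fits without 1 library, 1 of them without WT_Oxarol replicate 2 or VDRcKO_Oxarol replicate 2. Uqcrc1, a core subunit of complex III, had 277, 278 and 256 FPKM against 367, 382 and 388 (-0.49 ± 0.08, limma adjusted p = 0.00898). Of 79 ribosomal protein genes, 0 were called in either direction (all genes 8.71% higher and 4.43% lower). The series term kept the call for Uqcrc1 and ended it for Pcna (limma adjusted p = 0.0941).

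Immediate early genes, which respond fast to stimulation and to tissue handling, had 6 of 28 called higher (21.4%, all genes 8.71%) and 1 lower (3.57%, all genes 4.43%). Egr2 had 37.7, 35.4 and 34.7 FPKM against 13.7, 12.6 and 10.1 and 9.54 to 16.5 in ears without ointment (1.499 ± 0.16, limma adjusted p = 0.0023), a call that held in all 24 alternative settings. Jun had 58.5, 55.6 and 52.6 FPKM against 29.8, 31.9 and 28.6, and its call was lost without WT_PBS replicate 1, any single WT_Oxarol replicate or any single VDRcKO_Oxarol replicate (limma adjusted p = 0.0544 to 0.0985). Klf2 had 42.7, 42.7 and 62.3 FPKM against 14.5, 12.5 and 26.4, and its call was lost without WT_Oxarol replicates 1 or 2 or any single VDRcKO_Oxarol replicate (limma adjusted p = 0.0646 to 0.1). Egr1 had 23.7, 24.5 and 26.3 FPKM against 11.7, 10.96 and 9.37 with a limma adjusted p of 0.137, but untreated replicate 3 reached 44.1 and PBS replicate 3 reached 37.8 FPKM. Over the fits without 1 library the higher count was 1 to 9, with 1 without WT_Oxarol replicate 2 or VDRcKO_Oxarol replicate 1. After the series term was added, Egr2 stayed called and Jun and Klf2 did not (limma adjusted p = 0.0872 to 0.163).

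**Figure D4:**
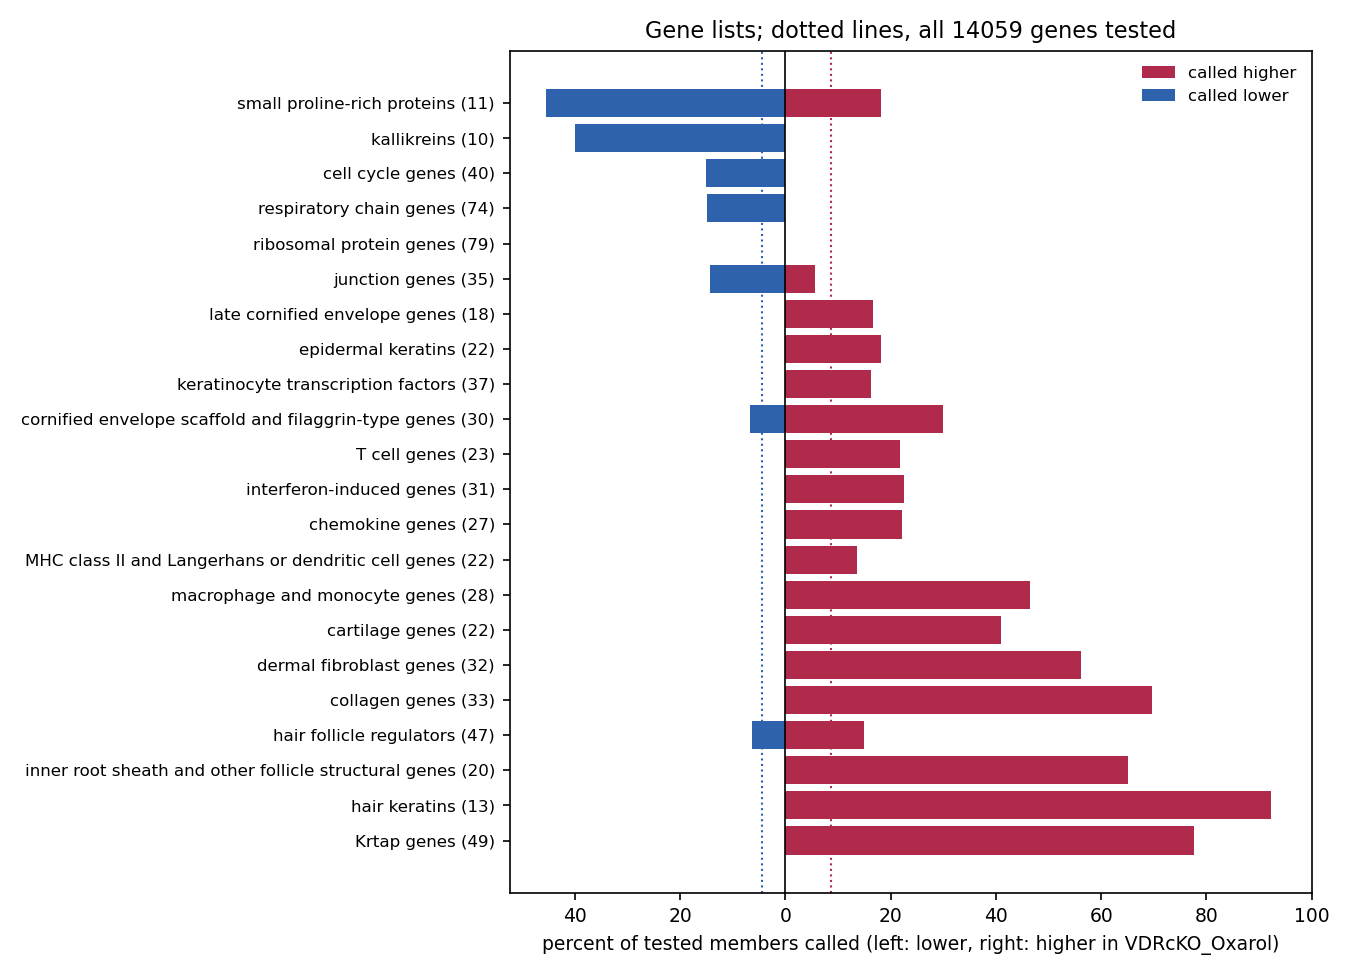
Share of the tested members of 22 gene lists that were called higher (red, right) or lower (blue, left) in VDRcKO_Oxarol; the number tested is in brackets and dotted lines mark 8.71% and 4.43% of all genes. Collagen, fibroblast, macrophage and hair lists reach furthest right, and the kallikrein and small proline-rich lists furthest left.

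Hair shaft genes are kept apart because they moved together and by library. Of 67 listed, 62 were tested, 49 Krtap genes (keratin-associated proteins, the matrix between keratin filaments of the hair) and 13 hair keratins. All 62 differences were above 0, from 1.16 to 6.35 with a median of 3.9, and 50 (80.6%, all genes 8.71%) were called higher. The 3 and 3 libraries did not overlap for 61 of them (98.4%), where 27.9% of all genes were higher without overlap. Some members reached 1 FPKM in 3 libraries only with the VDRcKO_Oxarol libraries counted. Among them are Krt35, Krt82, Krt83, Krt85, Krtap12-1, Krtap13-1 and Krtap16-1. For such members the filter itself favoured an increase, so the counts, shares and median of this set are tilted upward. The size of this tilt was not measured. The standard errors were large, with a median of 0.984 against 0.14 for other genes, and 4 hair shaft genes were called in all 12 fits without 1 library. The count was 4 without WT_Oxarol replicate 2, 8 without VDRcKO_Oxarol replicate 1 or replicate 2, 13 without WT_Oxarol replicate 3 and 28 without VDRcKO_Oxarol replicate 3.

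The hair level differed between single wild-type libraries as well. Hair shaft genes summed to 5105, 3418 and 1946 FPKM in VDRcKO_Oxarol and to 325.5, 52.15 and 85.53 FPKM in WT_Oxarol. The sums were 96.5, 101.5 and 2115 FPKM in WT_PBS and 115.7, 118.5 and 804.8 FPKM in untreated ears. PBS replicate 3 was thus above VDRcKO_Oxarol replicate 3. Of the 62 genes, 0, 19 and 49 were listed at 0 in WT_Oxarol replicates 1, 2 and 3 and 0 in each VDRcKO_Oxarol library, so the size of a difference depends on the pseudocount. All 3 VDRcKO_Oxarol libraries exceeded PBS replicate 3 for 34 of the 62 genes, and all 9 wild-type libraries for 31. The high wild-type libraries, replicate 3 of WT_PBS and of the untreated ears, lie in the second library series with the VDRcKO_Oxarol libraries, but WT_Oxarol replicate 3 of that series was low.

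**Figure D5:**
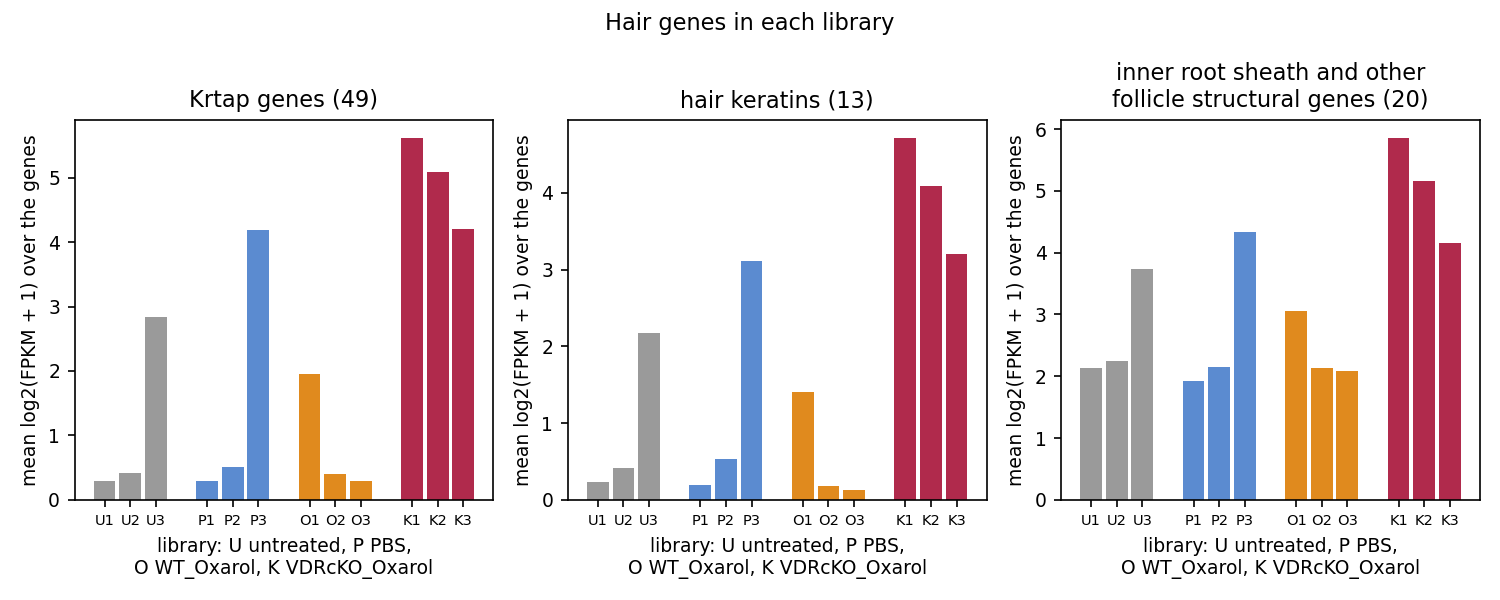
Mean log2(FPKM + 1) per library (y axis) over 49 Krtap genes, 13 hair keratins and 20 inner root sheath and other follicle structural genes; each bar is 1 library (U untreated, P PBS, O WT_Oxarol, K VDRcKO_Oxarol). The K bars are the highest of the ointment groups in every panel, and the bars of P3 and U3 rise above those of their group.

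The 4 hair shaft genes called in all fits were Krt32, Krt35, Krtap12-1 and Krtap13-1. All but Krt32 passed the filter only with the VDRcKO_Oxarol libraries counted. Krt32, a keratin of the hair cuticle, had 17.2, 12.1 and 8.397 FPKM against 1.84, 0.772 and 1.26, and 1.93, 1.55 and 6.43 in WT_PBS (2.54 ± 0.38, limma adjusted p = 0.00721). Krt35, of the hair cortex and cuticle, had 13.4, 8.58 and 3.16 FPKM against 0.431, 0.00623 and 0 (2.88 ± 0.51, limma adjusted p = 0.0113). Krtap12-1 had 9.65, 12.2 and 6.81 FPKM against 0.555, 0.202 and 0 (3.07 ± 0.49), and Krtap13-1 had 24.3, 25.1 and 13.1 against 0.855, 0 and 0 (4.10 ± 0.67). More abundant members had wider errors. Krt33a, a cortex keratin, had 164, 86.8 and 42.7 FPKM against 9.73, 0.177 and 0 and 0.132, 0.945 and 67.8 in WT_PBS, and did not pass (5.21 ± 1.66, limma adjusted p = 0.0618). Krtap3-1 had 429, 248 and 134 FPKM against 28.1, 3.36 and 2.37 and 4.19, 6.15 and 194 in WT_PBS (5.02 ± 1.51, limma adjusted p = 0.0525). Of 27 tested symbols that are Krtap-like by synonym or lie within a Krtap cluster of the reference, 21 were called higher (77.8%, all genes 8.71%) and 0 lower (all genes 4.43%), with a median of 3.34. Without them, non-hair genes gave 1154 higher and 623 lower calls. Gm19402, a member of these 27, also passed the filter only with the VDRcKO_Oxarol libraries counted. When the model held the series term, Krt32, Krtap12-1 and Krtap13-1 stayed called and Krt35 did not (limma adjusted p = 0.0543).

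Inner root sheath and other follicle structural genes followed, with 13 of 20 called higher (65%, all genes 8.71%), 0 lower and a median of 2.87. The count was 1 without WT_Oxarol replicate 2, and 1 of the 13 stayed called with the series term. Krt25, an inner root sheath keratin, had 124, 61.2 and 28.4 FPKM against 7.697, 2.601 and 2.57 and 5.06, 4.57 and 28.2 in WT_PBS, and its call was lost without WT_Oxarol replicate 2 or VDRcKO_Oxarol replicate 1 (limma adjusted p = 0.0534 to 0.0579). Vsig8, a membrane protein of the hair cuticle, had 7.46, 5.36 and 3.82 FPKM against 0.293, 0.118 and 0.282 (2.38 ± 0.43, limma adjusted p = 0.0121). Vsig8 and Padi3 of this list passed the filter only with the VDRcKO_Oxarol libraries counted, so their calls are weak support. S100a3, a calcium-binding protein of the cuticle, had 279.96, 226 and 99.9 FPKM against 29.4, 6.17 and 9.97 and 23.5, 25.2 and 156 in WT_PBS, and its call was lost without WT_Oxarol replicate 2 or VDRcKO_Oxarol replicates 1 or 2 (limma adjusted p = 0.0507 to 0.0584). The envelope scaffold members Tchhl1 and Crnn showed the same high libraries. Tchhl1 had 34.3, 17.4 and 8.01 FPKM against 1.51, 0.224 and 0, 0, 0.191 and 10.97 in WT_PBS and 0, 0.135 and 5.78 in untreated ears, and was not called without any single WT_Oxarol replicate or any single VDRcKO_Oxarol replicate (limma adjusted p = 0.0586 to 0.121). Crnn (cornulin) had 40.3, 16.4 and 7.42 FPKM against 1.496, 0.292 and 0, 0.0965, 0 and 10.4 and 0.224, 0.176 and 7.18 in the same groups, and was not called without WT_untreated replicate 2, WT_PBS replicate 1, any single WT_Oxarol replicate or any single VDRcKO_Oxarol replicate (limma adjusted p = 0.0506 to 0.134). Crym, a thyroid hormone-binding protein, had 27.2, 10.4 and 5.02 FPKM against 2.17, 0.9703 and 0.706, with 1.18, 1.29 and 6.12 in WT_PBS, and was not called without WT_Oxarol replicates 2 or 3 or VDRcKO_Oxarol replicates 1 or 2 (limma adjusted p = 0.0731 to 0.0916). With the series term Vsig8 stayed called and the other called genes given here did not (limma adjusted p = 0.0695 to 0.19).

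Regulators of the follicle had 7 of 47 called higher (14.9%, all genes 8.71%) and 3 lower (6.38%, all genes 4.43%), with a median of 0.21, and the higher count was 2 without WT_Oxarol replicate 2 or VDRcKO_Oxarol replicate 1. Fst (follistatin), an activin antagonist, had 15.8, 14.5 and 14.4 FPKM against 10.3, 9.05 and 8.42 (0.64 ± 0.09, limma adjusted p = 0.00507). Hoxc13, the homeobox factor of hair keratin genes, had 2.94, 1.96 and 1.89 FPKM against 0.676, 1.15 and 0.889, and its call was lost without WT_Oxarol replicate 1 or VDRcKO_Oxarol replicate 1 (limma adjusted p = 0.0535 to 0.0633). Wnt10a, a Wnt ligand of epidermis and follicle, was lower with 18.9, 16.4 and 15.97 FPKM against 28.9, 29.9 and 34.2, and its call was lost without WT_Oxarol replicate 2 (limma adjusted p = 0.0504). Edaradd, the adaptor of the ectodysplasin receptor, was lower with 5.13, 4.17 and 5.14 FPKM against 8.74, 7.82 and 9.32, and its call was lost without VDRcKO_Oxarol replicate 2 (limma adjusted p = 0.0588). Lef1, a mediator of Wnt signalling in hair matrix cells, had 5.73, 3.05 and 2.59 FPKM against 2.19, 1.71 and 2.14 with a limma adjusted p of 0.0812. Of the called genes given here, Fst and Wnt10a stayed called with the series term and Hoxc13 and Edaradd did not (limma adjusted p = 0.0832 to 0.0958).

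The share of genes called among the neighbours of Vdr on its chromosome rests on small nested sets of genes, and its difference from the share of all genes was not tested. In the RefSeq gene order, 5 of the 20 nearest tested genes were called (25%), 12 of the 50 nearest (24%, 8 higher and 4 lower) and 17.0% of the 100 nearest, against 13.1% of all genes. Col2a1 is the second tested gene from Vdr, and Hdac7, a deacetylase, is the adjacent one, with 4.07, 3.86 and 3.77 FPKM against 2.52, 1.81 and 2.34 and a call that was lost without any single WT_PBS replicate, any single WT_Oxarol replicate or any single VDRcKO_Oxarol replicate (limma adjusted p = 0.0511 to 0.128). A region of the major histocompatibility complex around Rxrb, chosen after its values were seen, had the same shares, 25% of the 20 and 24% of the 50 nearest. Rxrb, a partner of the receptor, had 4.92, 7.42 and 8.66 FPKM against 2.73, 3.302 and 4.39, and its call was lost without WT_Oxarol replicates 1 or 2 or VDRcKO_Oxarol replicates 2 or 3 (limma adjusted p = 0.068 to 0.0772). Brd2, a bromodomain protein next to Col11a2 there, had 26.6, 27.3 and 26.6 FPKM against 20.3, 17.8 and 17.8, and its call was lost without WT_Oxarol replicate 2 (limma adjusted p = 0.0562). C4b, a complement component in the same region, had 35.1, 26.8 and 24.8 FPKM against 5.92, 10.5 and 10.9, and its call was lost without WT_Oxarol replicates 1 or 2 or any single VDRcKO_Oxarol replicate (limma adjusted p = 0.0551 to 0.0836). The wild-type strain and the unnamed background of the K5-Cre;VDR f/f mice cannot be told apart from the deletion at these loci. Hdac7, Rxrb, Brd2 and C4b were not called with the series term (limma adjusted p = 0.069 to 0.148).

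Some of the largest increases concern near-identical copies. Gm9846 had 531, 1159 and 1424 FPKM against 1.699, 0.562 and 0, and its call was lost without WT_Oxarol replicates 2 or 3 or any single VDRcKO_Oxarol replicate (limma adjusted p = 0.0548 to 0.0687). It is a copy of a ribosomal protein gene that was itself listed at 0 in 5 of the 12 libraries, where an abundant gene is not expected at 0. Eif3j had 19.7, 23.6 and 20.8 FPKM against 0.583, 0.003704 and 0.003300, while its copy Gm9781 had 11.1, 0.0262 and 7.67 against 19.5, 24.9 and 21.5, and the sum of the pair was 30.817, 23.66 and 28.437 FPKM against 20.074, 24.916 and 21.512. The call of Eif3j was lost without WT_Oxarol replicates 2 or 3 or any single VDRcKO_Oxarol replicate (limma adjusted p = 0.0509 to 0.0694). These values are uncertain, since the share given to each copy can change between libraries. Of 182 tested short RNA genes, 11 were called lower (6.04%, all genes 4.43%) and 1 higher (0.549%, all genes 8.71%), and they were left out of the genes named here because such short transcripts are poorly measured in FPKM. Gm9846 and Eif3j were not called with the series term (limma adjusted p = 0.0878 to 0.105).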

How the data were processed

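The deposited tables of the 12 libraries give 1 value per gene symbol. The headers print no unit. The values were read as FPKM made by the authors, and the submitters' processing notes name TopHat2 2.0.8, Bowtie2 2.1.0, Cufflinks 2.1.1 and mm9. The sources used here do not give their settings, the strand setting or the read depth. Per the labels' protocols, libraries were made from total RNA with an NEBNext Ultra kit.

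Genes that reached 1 FPKM in 3 or more libraries were tested on log2(FPKM + 1), which understates the change of low genes, with limma 3.58.1 in R 4.3.3. One fit of 4 group means, with a trend in the variance, has 8 residual degrees of freedom. P-values were adjusted by Benjamini-Hochberg over all 14059 genes and the threshold was 0.05. The script was tested on simulated data. Alternatives were 24 settings, 12 of which left out 1 library. Figures and tables used Python 3.11.15, pandas 2.3.3 and matplotlib 3.10.9.

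The hair shaft members and the gene lists were chosen with earlier results of these data known, and a list is described by its counts and the share they make, beside the share of all genes. By rule, genes were chosen to be named as Vdr, Cyp24a1, the 12 largest changes each way with a mean of at least 5 FPKM in the higher group, and the members of each list with the smallest adjusted p or the widest use as a marker. The 12 each way were called, without overlap, and outside the hair shaft, Krtap-like, follicle and short RNA genes. Some chosen genes are not described here, among them Rpp25, called lower, and Abpa, called higher. Other genes were named after their values were seen. Promoter sequences and gene order come from RefSeq tables of GRCm38.p6, matched by symbol, and no file coordinate was converted.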

Additional observations from a re-analysis of the deposited data

How the results depend on the processing

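Of 253 genes listed as called and named, 12 kept the call in all 24 alternatives, 130 lost it in 1 to 5, 62 in 6 to 10 and 49 in more than 10, and none changed sign. With the library series as a term, the calls outside the hair shaft numbered 280 (180 higher, 100 lower) and in the hair shaft 3. Within the second series alone they numbered 44 (13 higher, 31 lower) and 9, and the lone WT_Oxarol library there was assumed to vary like the other groups. Array weights gave 3589 (2331 higher, 1258 lower) outside the hair shaft, the 5 FPKM filter gave 772 higher, and quantile normalization gave 770 higher and 1292 lower. Median-of-ratios scaling gave 1097 lower. In the hair shaft, a pseudocount of 0.1 gave 23 calls and robust variance moderation gave 32. Leaving out 1 library gave 318 to 3379 calls outside the hair shaft, 206 to 2308 higher and 112 to 1071 lower, and 4 to 58 in the hair shaft, the lowest without WT_Oxarol replicate 2. The cause of these moves was not tested. Some medians of lists near 0 changed sign: vitamin D metabolism and receptor genes to -0.00297, melanocyte genes to -0.0101 and mast cell genes to -0.00589 after quantile normalization, mast cell genes to -0.027 with the 5 FPKM filter, and oxidative stress genes to -0.0665 within the second series. No paired analysis was possible because the labels give no replicate numbers, and those used here follow accession order. The unknown and unequal depth limits low genes most.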

Other observations

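Further gene groups had calls in both directions or few calls. Of 35 junction genes, 5 were called lower (14.3%, all genes 4.43%) and 2 higher (5.71%, all genes 8.71%). Dsp, the desmosomal plaque protein, was among the lower ones, with 79.4, 85.03 and 88.3 FPKM in VDRcKO_Oxarol against 148, 109 and 113 in WT_Oxarol, and its call was lost without any single VDRcKO_Oxarol replicate (limma adjusted p = 0.0505 to 0.0758). Cldn1, the main claudin of epidermal tight junctions, was among the higher ones. It had 87.1, 74.5 and 79.5 FPKM in VDRcKO_Oxarol against 66.6, 50.1 and 49.8 in WT_Oxarol, and its call was lost without WT_Oxarol replicate 2 or VDRcKO_Oxarol replicate 1 (limma adjusted p = 0.0621 to 0.0678). Of 16 genes of vitamin D metabolism and the receptor complex, 4 were called higher (25%, all genes 8.71%), Vdr and Rxrb among them, and 3 lower (18.8%, all genes 4.43%). Med1, the coactivator subunit that binds the receptor, had 27.9, 27.96 and 29.9 FPKM against 33.5, 35.2 and 36.2 and was not called without WT_untreated replicate 2, any single WT_PBS replicate, any single WT_Oxarol replicate or any single VDRcKO_Oxarol replicate (limma adjusted p = 0.0532 to 0.118). Of 22 zinc transporters and metallothioneins, 2 were called higher (9.09%, all genes 8.71%) and 1 lower (4.55%, all genes 4.43%). Of 33 genes of cholesterol and fatty acid synthesis, 4 were called higher (12.1%, all genes 8.71%), among them Elovl5, and 2 lower (6.06%, all genes 4.43%), among them Elovl6. Of 17 circadian clock genes, 2 were called higher (11.8%, all genes 8.71%) and 2 lower (11.8%, all genes 4.43%). With the series term Cldn1 stayed called and Dsp and Med1 did not (limma adjusted p = 0.111).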
